A study of Mus musculus with 2 samples.

Results

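The Mir148/Mir152 family of mouse microRNA genes has 3 members, Mir148a, Mir148b and Mir152. They were found by matching the Ensembl gene identifiers of the count tables to the mm10 gene annotation, and they are 3 of the 2202 microRNA genes in the tables. Small RNA (labelled size range under 30, unit not given) was sequenced from heart tissue of adult female mice aged 8 to 10 months with the strain label 5xFAD/CAST. The name 5xFAD belongs to a transgenic mouse that carries human Alzheimer disease mutations in neuronally expressed transgenes, and CAST to an inbred strain of wild origin. The labels do not say whether these animals carried the transgenes. The study held 1 group of 2 libraries, labelled biological replicates 2 and 1, with no control group, so the only contrast is between these libraries. Both carry the same donor identifier but separate biosample identifiers, and the labels do not say whether they came from separate animals, so part or all of their spread may be technical.

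A microRNA is a short RNA that guides Argonaute proteins to messenger RNAs by pairing through its seed, the bases near its 5′ end, and lowers the output of those messages. Genes with the same seed can act on the same messages. In work on human and mouse cells, the miR-148 and miR-152 microRNAs are known to act on the maintenance DNA methyltransferase Dnmt1. MiR-148a is also known for acting on the cholesterol transporter Abca1 in liver, where it is abundant, and for a role in B cell tolerance in mice.

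The mature 3p strands of the 3 genes are shown here because they define the family and because their differences decide whether reads can be told apart. Sequences are from RefSeq (GRCm38.p6, the assembly that mm10 names), run 5′ to 3′, and carry the seed, bases 2 to 8, in capitals.
miR-148a-3p: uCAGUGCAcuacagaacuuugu
miR-148b-3p: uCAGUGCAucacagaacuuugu
miR-152-3p: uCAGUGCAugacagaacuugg

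All 3 strands carried the seed CAGUGCA, which pairs with the message site UGCACUG. No other gene among the 1738 mature sequences of the RefSeq table used here had it. Counting from 1 at the 5′ end, miR-148b-3p differed from miR-148a-3p by C9U and U10C, just behind the seed. MiR-152-3p differed from miR-148a-3p by C9U, U10G and U20G over 21 aligned bases, and from miR-148b-3p by C10G and U20G.

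The precursor hairpins are shown with both mature strands in capitals, the 5p strand first, because the tables count reads per gene and do not separate the strands.
Mir148a: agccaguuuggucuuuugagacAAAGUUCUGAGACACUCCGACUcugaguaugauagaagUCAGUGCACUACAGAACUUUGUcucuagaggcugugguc
Mir148b: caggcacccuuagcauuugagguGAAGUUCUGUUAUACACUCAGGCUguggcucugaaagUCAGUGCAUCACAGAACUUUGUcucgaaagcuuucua
Mir152: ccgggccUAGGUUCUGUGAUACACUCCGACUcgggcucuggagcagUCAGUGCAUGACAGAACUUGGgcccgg

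The hairpins of Mir148a and Mir148b were 99 and 97 bases long with GC contents of 45.5% and 45.4%. That of Mir152 was shorter and richer in GC, with 73 bases and 61.6%. The longest run of identical bases with any of the 1004 other hairpins in the table was 15 for Mir148a and for Mir148b, shared between them, and 12 for Mir152, shared with Mir148a. No other hairpin in the table held the mature 3p strand of any member. Reads that fitted several loci were assigned to no gene in these tables, and a full-length 3p read of each member was unique among the hairpins searched.

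Mir148a lay on the minus strand at chr6:51269812-51269910 (mm10), outside any annotated gene on its strand. Mir148b lay on the plus strand at chr15:103285125-103285221, in an intron of Copz1. Mir152 lay on the plus strand at chr11:96850393-96850465, in an intron of Copz2. Copz1 and Copz2 are paralogs that encode the zeta subunit of the COPI vesicle coat. No annotated gene overlapped a member on the opposite strand. The nearest other microRNA gene was 65.2 kb from Mir148b, 213 kb from Mir152 and 352 kb from Mir148a, so none of them sat in a close cluster.

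The 3 loci had paralogous protein-coding neighbours, a feature looked up after the positions and the counts were seen. Each lay within 1 Mb of genes of a Hox cluster, which encodes transcription factors of the body axis: the Hoxa cluster for Mir148a, the Hoxc cluster for Mir148b and the Hoxb cluster for Mir152. A gene of the NF-E2 family of transcription factors lay between the member and the Hox genes in every case: Nfe2l3 at 163 kb from Mir148a, Nfe2 at 26.7 kb from Mir148b and Nfe2l1 at 20.4 kb from Mir152. A heterochromatin protein gene stood there too: Cbx3 at 200.4 kb from Mir148a, Cbx5 at 45.3 kb from Mir148b and Cbx1 at 41.8 kb from Mir152. Members of the Snx10/Snx11 and Skap1/Skap2 pairs lay between the member and the Hox genes at Mir148a and Mir152.

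**Figure D1:**
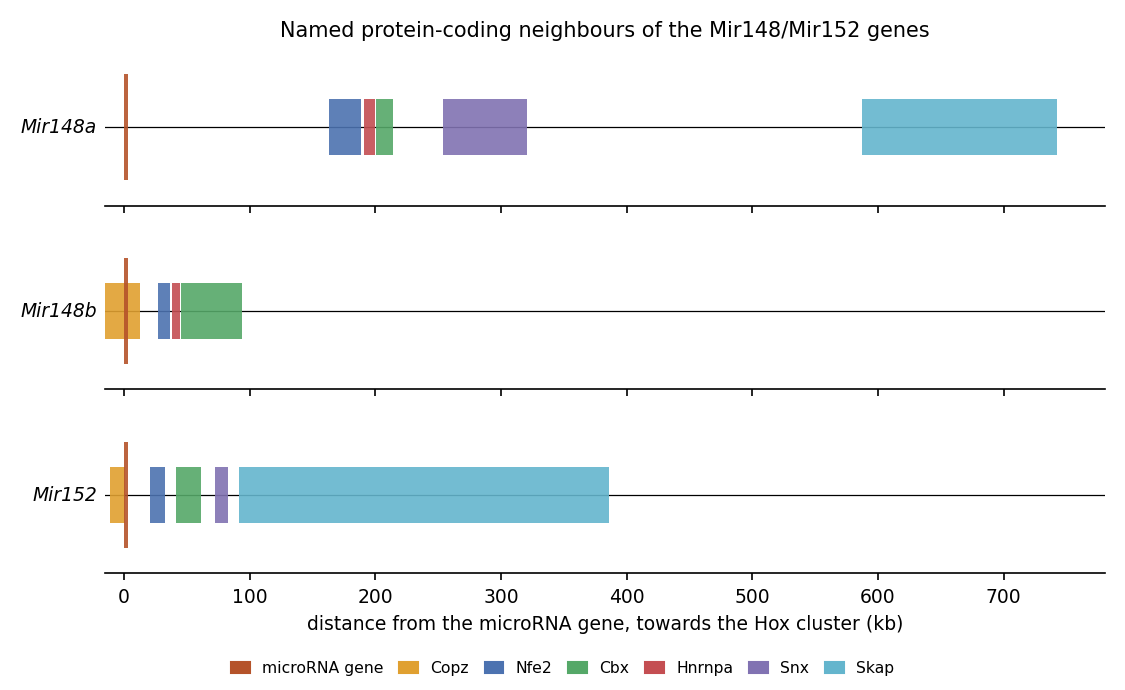
Distance in kb of named protein-coding genes from each Mir148/Mir152 gene, with the direction of the Hox cluster to the right; each block is a gene, drawn at least 3 kb wide, coloured by gene family. At Mir148b and Mir152 a Copz gene contains the microRNA gene, and at all 3 loci an Nfe2 and a Cbx family gene lie on the side of the Hox cluster, whose genes are not drawn.

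Reads assigned to microRNA genes came to 2877511 of 8930289 in replicate 2 and 4186560 of 13233055 in replicate 1, and levels below are counts per 1000000 of these (CPM). A further 43.2% of the reads of replicate 2 and 42.4% of those of replicate 1 fitted several loci. The heart label was matched by the cardiomyocyte markers Mir499 and Mir208a. Mir499 stood at 3618 CPM in replicate 2 and 4787 CPM in replicate 1. Mir208a, hosted by the adult myosin gene Myh6, stood at 1074 CPM in replicate 2 and 1638 CPM in replicate 1. The remaining cardiomyocyte marker, Mir208b, hosted by Myh7, was far lower, at 22.2 CPM in replicate 2 and 41.8 CPM in replicate 1. A read covers a whole mature strand, so counts were not divided by gene length. Levels of different genes can still differ through how well each sequence is captured in a library, which was not tested.

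All 3 members were present in both libraries, at middle levels, and all of their reads lay on the strand of the gene. Mir152 had 224 counts in replicate 2 (77.8 CPM, 95% interval 68.0 to 88.7) and 1131 counts in replicate 1 (270.2 CPM, 254.6 to 286.4). Mir148a had 207 counts in replicate 2 (71.9 CPM, 62.5 to 82.4) and 434 counts in replicate 1 (103.7 CPM, 94.1 to 113.9). Mir148b had 171 counts in replicate 2 (59.4 CPM, 50.9 to 69.0) and 356 counts in replicate 1 (85.0 CPM, 76.4 to 94.3). Replicate 2 was the lower library for each gene, and the intervals of the libraries did not overlap for any of them. Differences of this kind were common: in the binomial test described below, 63.4% of 309 genes differed between the libraries. The share of all genes with intervals that did not overlap was not counted. Intervals are exact Clopper-Pearson ones. Because the reads carry no molecular identifiers and may be copies of one molecule, they cover counting error only.

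**Figure D2:**
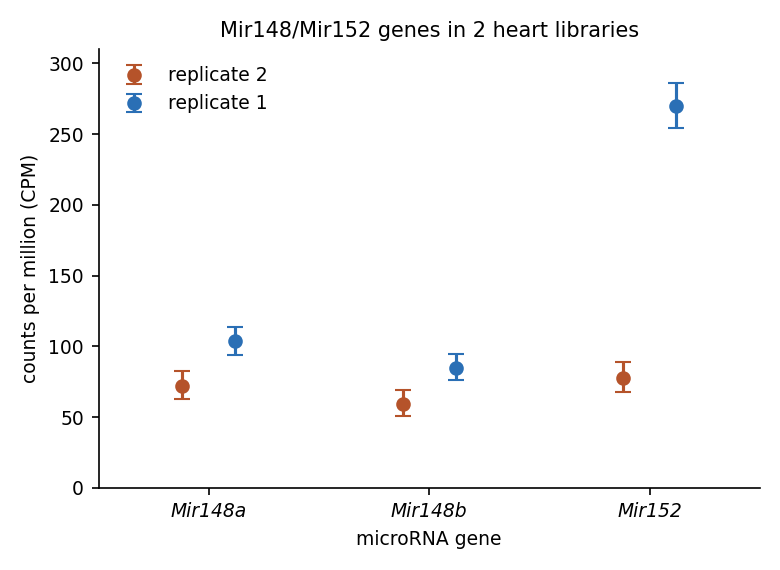
CPM of Mir148a, Mir148b and Mir152 in replicate 2 (left point of each pair) and replicate 1 (right point); bars are exact 95% intervals for counting error. Replicate 2 spans 59.4 to 77.8 CPM over the genes, and in replicate 1 Mir152, at 270.2 CPM, stands apart from the other two.

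On average over the libraries Mir152 stood at 174 ± 136 CPM, Mir148a at 87.8 ± 22.4 CPM and Mir148b at 72.2 ± 18.1 CPM (SD, n = 2 for each). Their order was the same in both libraries, but the steps between neighbours were not alike. In replicate 2 the interval of Mir152 overlapped that of Mir148a, and that of Mir148a overlapped that of Mir148b. In replicate 1 Mir152 was far above Mir148a, and the intervals of Mir148a and Mir148b overlapped only at their ends. By mean level Mir152 ranked 112, Mir148a 137 and Mir148b 148 among all genes, of which 380 were detected at 1 CPM or more in both libraries. The median detected gene had a mean of 34.2 CPM.

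The family together took 602 counts in replicate 2, or 0.0209% of all assigned counts (95% limits 0.0193 and 0.0227), and 1921 counts in replicate 1, or 0.0459% (0.0439 to 0.0480). The mean share was 0.0334% ± 0.0177 (SD, n = 2). Mir152 supplied 37.2% of the family's counts in replicate 2 (33.3 to 41.2) and 58.9% in replicate 1 (56.6 to 61.1). Mir148a supplied 34.4% in replicate 2 (30.6 to 38.3) and 22.6% in replicate 1 (20.7 to 24.5). Mir148b supplied 28.4% in replicate 2 (24.8 to 32.2) and 18.5% in replicate 1 (16.8 to 20.3). Thus Mir152 held the largest share in both libraries, but the shares lay closer together in replicate 2. There the interval of Mir152 overlapped that of Mir148a and lay above that of Mir148b.

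**Figure D3:**
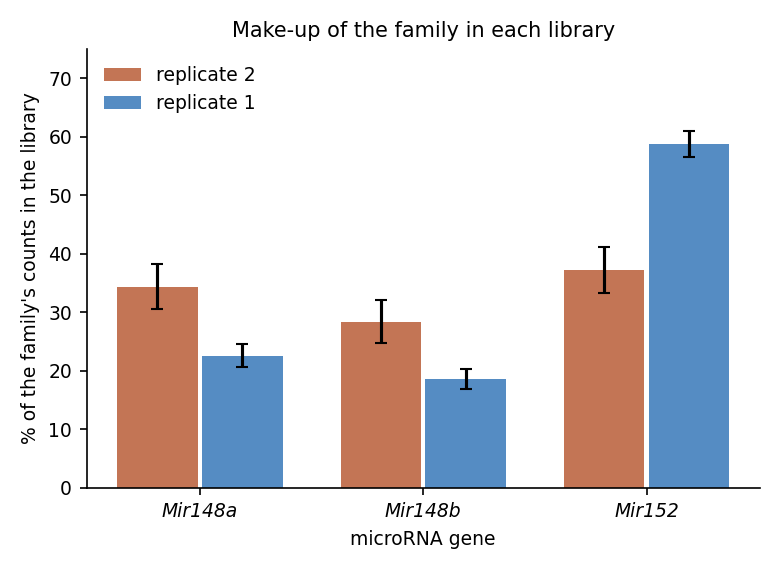
Share of the family's counts, in percent, held by each gene in replicate 2 (left bars) and replicate 1 (right bars); error bars are exact 95% binomial intervals. Mir152 holds 37.2% of the family in replicate 2 and 58.9% in replicate 1.

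Ratios of members within a library do not depend on how the libraries are scaled to each other. The ratio of Mir148a to Mir148b was 1.21 in replicate 2 (exact 95% limits 0.984 and 1.49) and 1.22 in replicate 1 (1.06 and 1.41). The quotient of these ratios, replicate 2 over replicate 1, was 0.993, with an interval of 0.770 to 1.28 that includes 1. Mir152 behaved otherwise. Its ratio to Mir148a was 1.08 in replicate 2 (0.892 to 1.31) and 2.61 in replicate 1 (2.33 to 2.92), a quotient of 0.415 (0.332 to 0.520). Its ratio to Mir148b was 1.31 in replicate 2 (1.07 to 1.61) and 3.18 in replicate 1 (2.82 to 3.59), a quotient of 0.413 (0.325 to 0.524). Mir152 therefore differed between the libraries by more than either of its relatives, beyond counting error.

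All 3 members were lower in replicate 2 in the test of all genes, an exact two-sided binomial test on counts scaled by TMM, a method that sets the typical gene's difference near 0. It covered 309 genes with enough counts (a minimum of 10, under the filter of edgeR), with Benjamini-Hochberg adjustment over all of them and a threshold of 0.05. Mir152 had a log2 ratio, replicate 2 over replicate 1, of -1.72 (interval -1.94 to -1.52, adjusted p = 1.16e-74), which made it 3.30-fold lower in replicate 2. Mir148a had a log2 ratio of -0.46 (-0.70 to -0.21, adjusted p = 0.000337) and Mir148b of -0.45 (-0.72 to -0.18, adjusted p = 0.00154). The test compares the reads of these 2 libraries, not conditions, and at this depth much of the table passed it. Over all genes tested, 63.4% passed, 35.3% higher and 28.2% lower in replicate 2, so a pass alone says little about the members.

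Set against the spread of the genes tested, Mir148a and Mir148b were ordinary and Mir152 was far out. The quartiles of the log2 ratio over the genes tested were -0.50 and 0.53, with a median of 0.01 and a median absolute value of 0.51. Mir148a and Mir148b lay between those quartiles. Only 12 of the 309 genes had a lower log2 ratio than Mir152, and 17 had a larger absolute one. The filter asked for enough counts in both libraries, so it left out some genes with very unequal counts. Among these were Mir302a, with 482 counts in replicate 2 and 10 in replicate 1, and Mir129-2, with 7 and 57. The ranking of Mir152 therefore holds among the genes tested only.

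**Figure D4:**
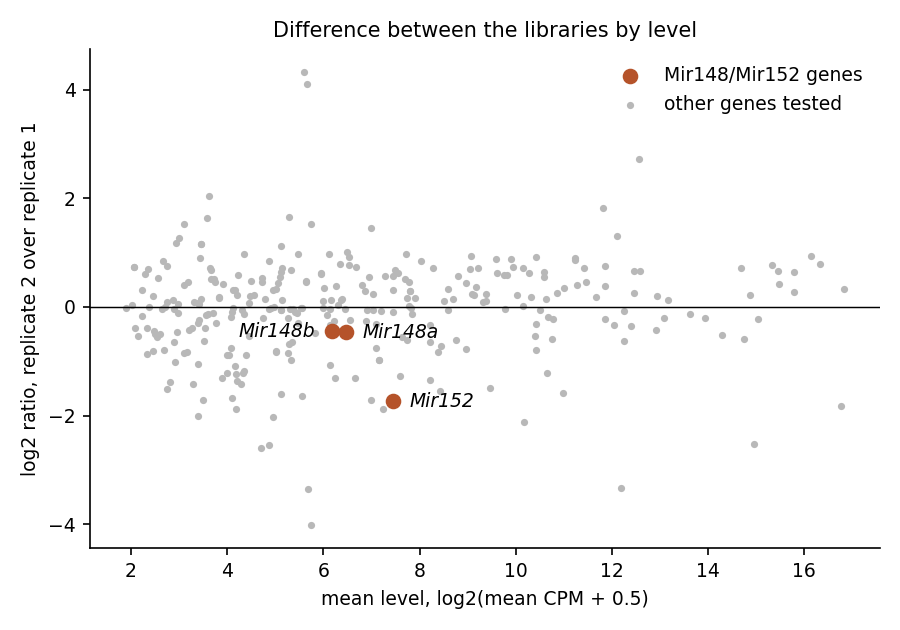
Log2 ratio of replicate 2 over replicate 1 (vertical axis) against mean level, log2(mean CPM + 0.5) (horizontal axis), for the 309 genes tested; larger points are the family. Mir148a and Mir148b lie at -0.46 and -0.45, within the main body of genes, and Mir152 at -1.72 near its lower edge.

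The genes nearest to each member in level over the 2 libraries, by Euclidean distance in log2(CPM + 0.5) among detected genes, were as follows. Nearest to Mir148a were Mir345, Mir1843b and Mir92-2, at distances of 0.17, 0.21 and 0.30. Nearest to Mir148b were Mir101a, Mir374b and Mir181a-1, at 0.10, 0.11 and 0.15. Mir152 had more distant neighbours: Mir144, a gene of red cell precursors, at 0.37, Mir24-2 at 0.49 and Mir101b at 0.56. The likeness rests on 2 libraries and is a description of level. Mir92-2, Mir181a-1 and Mir24-2 each share a mature sequence with another locus, so their counts hold only reads unique to one locus.

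Several marker genes of other cell types moved in the direction of Mir152, and others against it. The red cell genes Mir144 and Mir451a summed to 230.1 CPM in replicate 2 and 754.6 CPM in replicate 1, with log2 ratios of -1.88 and -1.54, and both were lower in replicate 2. The endothelial gene Mir126a was lower too, with 46780 CPM in replicate 2 and 174314 CPM in replicate 1 (log2 ratio -1.83). All 3 cardiomyocyte genes were lower, summing to 4715 CPM in replicate 2 and 6466 CPM in replicate 1, with log2 ratios from -0.84 to -0.33. The 4 leukocyte genes were all higher in replicate 2, summing to 7640 CPM there and 5369 CPM in replicate 1. Both smooth muscle genes were also higher, summing to 56334 CPM in replicate 2 and 32911 CPM in replicate 1. Mir486, read beside the red cell genes after values were seen, went against Mir144 and Mir451a. It stood at 1097 CPM in replicate 2 and 992 CPM in replicate 1 (log2 ratio 0.22) and was called higher in replicate 2. Over all genes tested, 28.2% were lower and 35.3% higher in replicate 2, and each marker group held only a few genes. The part of cell make-up in the family's difference was not tested, and in bulk tissue fewer cells of a type and less of a microRNA per cell cannot be told apart.

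Liver and exocrine pancreas are known for high miR-148a, and their marker genes were read beside it. The hepatocyte gene Mir122 had 165 counts in replicate 2 (57.3 CPM) and 80 in replicate 1 (19.1 CPM), a mean of 38.2 CPM, near the median detected gene. Its log2 ratio was 1.66, beside -0.46 for Mir148a. Of the pancreas genes, Mir375 had 54 counts in replicate 2 and 71 in replicate 1 and did not pass the test (log2 ratio 0.22, adjusted p = 0.505). The acinar genes Mir216a, Mir216b and Mir217 had 3, 2 and 1 counts in replicate 2 and 0, 2 and 1 in replicate 1. Whether RNA of either organ contributed to the counts of Mir148a was not tested.

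Other microRNAs reported, mainly in human cells, to act on DNA methyltransferases were read as a list. It was chosen with earlier results of these data known and holds paralogs, so its counts are a description only. Of the 11 on the list, all were tested, 7 were lower in replicate 2 (6 with counts regardless of strand), 3 were higher and 1 did not pass, where over all genes tested 28.2% were lower and 35.3% higher. The list's median log2 ratio was -0.33 beside 0.01 over all genes tested. Of the Mir29 genes, known for acting on Dnmt3a and Dnmt3b and on collagens, Mir29a had a log2 ratio of -0.59, Mir29b-2 of -0.85 and Mir29c of -1.21, and Mir29b-1 did not pass (-0.02, adjusted p = 0.98). The Mir101 pair was lower, Mir101a with 60.1 CPM in replicate 2 and 79.5 CPM in replicate 1 (log2 ratio -0.33) and Mir101b with 92.8 CPM in replicate 2 and 191.6 CPM in replicate 1 (-0.97). Mir185 (-0.31) and Mir126a were the other genes lower. Mir140, a cartilage gene, had the highest log2 ratio of the list, 2.73, and Mir143 (0.77) and Mir342 (0.24) were higher as well. The summed level of the list was 566 times that of the family on average, most of it Mir126a, Mir143 and Mir29a.

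Among 9 microRNAs reported to act on genes of cholesterol handling, such as Abca1, 8 were tested, 6 were lower in replicate 2, 1 was higher and 1 did not pass, beside the 28.2% lower and 35.3% higher over all genes tested. Their median log2 ratio was -0.45 beside 0.01 over all genes tested. This list too was chosen with earlier results of these data known. Mir144 had the lowest log2 ratio of the list, -1.88, with 61.9 CPM in replicate 2 and 239.8 CPM in replicate 1. Mir106b (log2 ratio -0.82), Mir128-2 (-0.76), Mir128-1 (-0.55), Mir27b (-0.35) and Mir27a (-0.22) were lower as well. Mir33, in an intron of the sterol regulator Srebf2, had 40 counts in replicate 2 and 43 in replicate 1 and did not pass (log2 ratio 0.51, adjusted p = 0.167). Mir130b was the gene called higher (log2 ratio 0.53, adjusted p = 0.0277). That call ended with plain totals, with counts regardless of strand and without the filter on low counts. Mir301b had no count in either library.

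MicroRNA genes that, like Mir148b and Mir152, lie in paralogous hosts differed in direction between families. Of the 9 genes listed, 8 were tested, 3 were lower in replicate 2 and 4 were higher, and Mir26a-2 did not pass, beside the 28.2% lower and 35.3% higher over all genes tested. Their median log2 ratio was 0.17 beside 0.01 over all genes tested. Like the other lists, this one was chosen with earlier results of these data known. The myosin-hosted genes Mir208a (Myh6), Mir208b (Myh7) and Mir499 (Myh7b) had log2 ratios of -0.54, -0.84 and -0.33. In the pantothenate kinase genes, Mir107 (Pank1) had 0.93 and Mir103-2 (Pank2) 1.64, while Mir103-1 (Pank3), with 7 counts in replicate 2 and 1 in replicate 1, was below the filter. In the Ctdsp phosphatase genes, Mir26b (Ctdsp1) had 0.22, Mir26a-1 (Ctdspl) 4.32, and Mir26a-2 (Ctdsp2) 0.12 ( adjusted p = 0.423). The pair Mir152 and Mir148b, in Copz2 and Copz1, differed from each other by 1.28 on the log2 scale (exact 95% interval of Mir152 relative to Mir148b -1.62 to -0.93). Mir26a-1, Mir26a-2, Mir103-1, Mir103-2, Mir128-1, Mir128-2, Mir29b-1 and Mir29b-2 each share a mature sequence with a second locus, and their counts hold only reads unique to one of them.

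**Figure D5:**
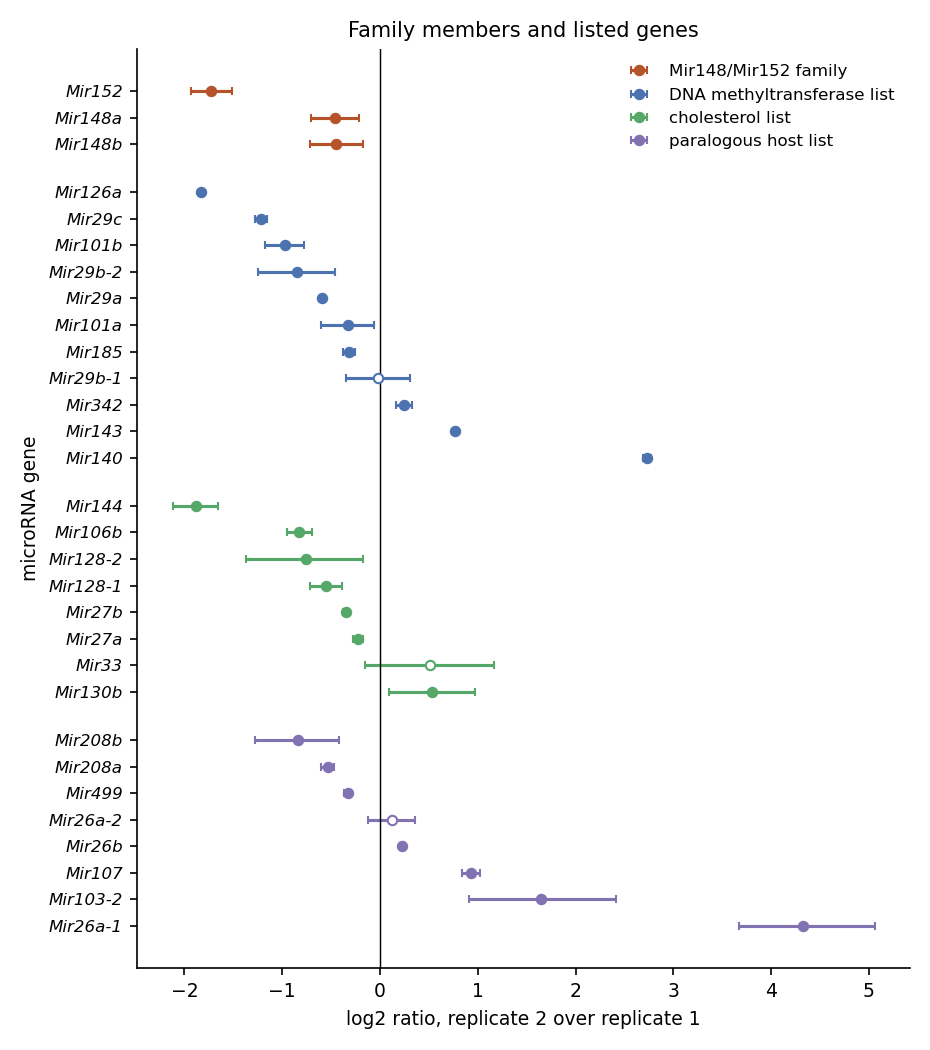
Log2 ratio of replicate 2 over replicate 1 with exact 95% intervals for the family and for the tested genes of the DNA methyltransferase, cholesterol and paralogous host lists; open circles did not pass the test. The family runs from -1.72 to -0.45, while each list holds genes on both sides of 0.

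A shifted form of the seed occurs in another family. Bases 2 to 7 of 7 mature microRNAs in the RefSeq table, those of the Mir130/Mir301 group among them, are AGUGCA, the family's seed without its first base. A pair of them is printed here with these bases in capitals to show the offset by 1 base against the strands above.
miR-130a-3p: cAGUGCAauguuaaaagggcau
miR-301a-3p: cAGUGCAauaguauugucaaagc

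Of these 7 genes, chosen after the sequences and the values were seen, 3 were tested and the others had no count. Mir130a, known from endothelial cells, had 1477 CPM in replicate 2 and 1767 CPM in replicate 1, above every member of the Mir148/Mir152 family in either library (log2 ratio -0.19). Mir301 had 8.69 CPM in replicate 2 and 92.7 CPM in replicate 1 (log2 ratio -3.34), and Mir130b 29.9 CPM in replicate 2 and 21.7 CPM in replicate 1. Mir130a and Mir301 were lower in replicate 2 and Mir130b was higher, beside 28.2% lower and 35.3% higher over all genes tested.

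Of the Hox cluster microRNAs near the members, also looked up after the positions and values were seen, 2 had enough counts for the test. Mir10a, in the cluster near Mir152, had a log2 ratio of 0.14, and Mir196b, in the cluster near Mir148a, of 0.71. Both were called higher in replicate 2, as were 35.3% of all genes tested, while 28.2% were lower. Near Mir148b, Mir615 had 5 counts in replicate 2 and 9 in replicate 1 (1.74 and 2.15 CPM), and Mir196a-2 had 3 in each library. Mir196a-1, near Mir152, had no count. These 3 genes were below the filter, so no direction was tested for them.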

How the data were processed

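The deposited values are raw counts of reads per microRNA gene, 1 table per library, made by the authors on build mm10 with annotation M21, per the deposited readme. The aligner is not given in the sources used here. Counts on the strand of the gene were used. The 4 rows that name no gene stayed out of totals: unmapped reads (17.5% in replicate 2, 19.0% in replicate 1), reads at several loci (43.2%, 42.4%), reads outside genes (7.11%, 6.94%) and ambiguous reads (0% in each). A count of 0 allows up to 3 counts, or 1.04 CPM in replicate 2 and 0.717 CPM in replicate 1. The libraries were not duplicates (chi-square per degree of freedom 830 over genes with a count).

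Scaling was by TMM in edgeR 4.0.16 (R 4.3.3) on the genes kept by filterByExpr with a minimum count of 10. Tests were exact binomial tests (scipy 1.17.1, Python 3.11.15), since 2 libraries of 1 group leave no residual degrees of freedom for a quasi-likelihood test between them. The binomial test and its interval were tried on simulated counts that held counting error only, scaled by plain totals. TMM scaling and the filter were not part of that simulation. Alternatives were DESeq2 1.42.0 size factors, plain totals, no filter, counts regardless of strand, another denominator and leaving out each replicate. The family and the lists were chosen with earlier results of these data known. Genes named are the members, genes with the same seed, the list and marker genes and the 3 nearest genes in level to each member. Genes with a shifted seed, the neighbours in the genome, the Hox microRNAs and Mir486 were added after values were seen. By symbol, 1032 of the 2202 genes matched the RefSeq sequence table.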

Additional observations from a re-analysis of the deposited data

How the results depend on the processing

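Mir148a, Mir148b and Mir152 were lower in replicate 2 with DESeq2 size factors, plain totals, no filter on low counts and counts regardless of strand, with log2 ratios from -0.57 to -0.47, -0.56 to -0.46 and -1.84 to -1.73. Dropping the filter shifted all log2 ratios by -0.12 through TMM. Counts regardless of strand, which leave out genes overlapping on the other strand, raised the means of Mir148a to 119.5 CPM, Mir148b to 98.3 CPM and Mir152 to 243.1 CPM, and their ranks to 123, 135 and 99. Per 1000000 of all reads, Mir148a stood at 28.0, Mir148b at 23.0, Mir152 at 55.3 and the family at 0.0106% of reads. A threshold of a single count, in either library, gave 709 genes in place of 380. The number of cholesterol list genes higher in replicate 2 was 0 with plain totals, with counts regardless of strand and with no filter. Without each replicate in turn, means ran from 71.9 to 103.7 CPM for Mir148a, 59.4 to 85.0 for Mir148b and 77.8 to 270.2 for Mir152, the family's share from 0.0209% to 0.0459%, and detected genes from 412 to 445. Log2 ratios have no value without a replicate. No paired analysis was possible because the design holds 1 group. At 171 to 224 counts in replicate 2, counting error limits each member's level there.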
